A study of Mus musculus with 26 samples.

Results

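The cytosolic ribosomal protein genes were examined in single blastomeres of mouse 8-cell embryos, in which scRR-seq measured RNA and replication state in the same cell. The genes were chosen by symbol alone. They are autosomal protein-coding genes named Rpl or Rps with a number, together with Rplp0, Rplp1, Rplp2 and Rpsa, as spelled in a GENCODE annotation of mm10. This rule found 76 of the 55487 genes in the table, 46 of the large subunit and 30 of the small subunit. It left out 3 genes with such symbols on chromosome X.

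RNA was available for 9 blastomeres. Embryo 1 gave 3 cells (cells 1, 6 and 7), which the study placed in G1 or G2/M, and embryo 2 gave 6 cells (cells 2, 3, 5, 6, 7 and 8) in S phase. Oocytes and sperm came from C57BL/6 mice, with fertilisation in vitro and no treatment of either embryo, and blastomeres were picked by hand. The numbers that close the sample titles run from 11 to 17 in 3 cells (embryo 1 cell 1, embryo 2 cells 2 and 3) and from 20 to 25 in the other 6, and the sample list of the study names another lysis protocol for each of these number ranges. Each embryo is 1 biological replicate and its cells are not replicates of an embryo. Differences are therefore described beside the SD between cells and were not tested.

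Each cytosolic ribosome has a small subunit, which reads the message, and a large subunit, which forms the peptide bond. Nearly every ribosomal protein is built into a ribosome once, and the proteins of the acidic stalk are the known exception. Messages of these genes typically begin with a C and a run of pyrimidines, the terminal oligopyrimidine (TOP) start, through which growth signals control their translation. The mouse genome also carries a very large number of processed pseudogenes of these genes, copies of spliced messages that were inserted elsewhere. In cleavage-stage embryos, the ribosome pool of the oocyte is gradually joined by ribosomes made from the genome of the embryo.

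All 12 blastomere markers fixed for this work, among them Pou5f1 and Tfap2c, were above 1 TPM in at least 1 cell, and their summed level was 2225 to 3394 TPM. Dppa3 was highest, with a mean of 1465 TPM, while Ooep, Oosp1, Nlrp5, Gdf9 and Padi6 had means of 2.32 to 8.99 TPM. Markers of cumulus and granulosa cells summed to at most 6.13 TPM, with 2 of 10 above 1 TPM in a cell and 5 listed at 0 in every cell. Sperm markers summed to at most 1.62 TPM and fibroblast and blood markers to at most 1.95 TPM. Of these, 2 of 6 and 1 of 6 were above 1 TPM in a cell. TPM values sum to the same total in every cell and keep no read depth, so no counting error can be given.

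The ribosomal protein genes together took 12.5% ± 1.67 (SD, n = 9 cells) of all TPM. The share was 12.1%, 11.1% and 15.1% in embryo 1 cells 1, 6 and 7. In embryo 2 the lowest share was 10.0%, in cell 5, and the highest was 14.4%, in cell 3. Embryo 1 cell 7 therefore held the highest share and embryo 2 cell 5 the lowest, and the embryos overlapped. Embryo 2 minus embryo 1 gave -0.39 percentage points, beside a pooled SD over cells of 1.78. The same difference was 1.52 among cells numbered 11 to 17, -1.34 among those numbered 20 to 25 and 0.45 with mitochondrial genes left out of the total, so its sign varied with the cells and the total used.

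The share moved against that of the mitochondrial genome, which took 4.28% of TPM in embryo 1 cell 7 and 18.2% in embryo 2 cell 5. Over the 9 cells Pearson's r between both shares was -0.69 and Spearman's rho was -0.72. Both are parts of 1 fixed total, and the values are given as a description. With mitochondrial genes out of the total, ribosomal protein genes took 11.9% to 15.8% and r was -0.37.

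**Figure D1:**
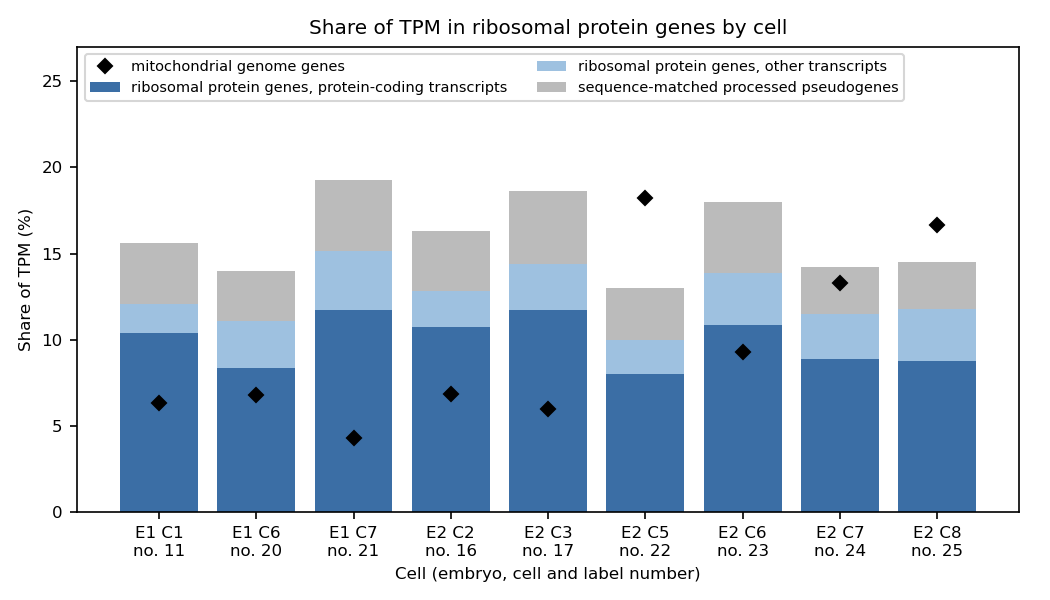
Bars give the percent of TPM in each of the 9 cells that lies in protein-coding transcripts of the ribosomal protein genes, in their other transcripts and in processed pseudogenes matched to them by sequence. Diamonds give the percent in genes of the mitochondrial genome, which is 18.2% in embryo 2 cell 5 where the ribosomal protein genes are lowest.

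Almost all members were present in every blastomere. Of the 76 genes, 75 were above 1 TPM in all 9 cells, against 64.2% of autosomal protein-coding genes with mean TPM > 1, and 74 were above 10 TPM in all, against 34.4%. The median member had a mean of 1597 TPM, where the median of those 10160 genes was 13.1 TPM. Mean TPM exceeded 500 in 70 members and in 2.13% of the background. The only member listed at 0 in any cell was Rpl3l, a relative of Rpl3 known from striated muscle. Its level was 0.63 TPM in embryo 1 cell 1, 1.56 TPM in embryo 1 cell 6 and 1.99 TPM in embryo 2 cell 3, and it was listed at 0 in the other 6 cells. It was the only member that failed the background filter of mean TPM > 1. Rpl3 itself, which lies near the peptidyl transferase centre, was at 1459 to 2163 TPM.

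The highest member was Rpl41 (ENSMUSG00000093674.7, chromosome 10, 128548114 to 128549305), which encodes the smallest ribosomal protein. Cells 1, 6 and 7 of embryo 1 held 7436, 4220 and 11295 TPM of it. The lowest cell of embryo 2 held 4866 TPM, the median was 5731 TPM and the highest cell held 8119 TPM. Embryo 1 thus held both the lowest and the highest cell. Rpl41 alone made up 5.25% of the summed TPM of all members, and the 5 highest members made up 16.3%.

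Next in order were Rplp2 and Rplp1, the acidic proteins P2 and P1 of the stalk that recruits elongation factors. Rplp2 had a mean of 4084 ± 978 TPM (SD, n = 9 cells) and Rplp1 of 3647 ± 807 TPM. Rplp0 encodes P0, the protein on which the P1 and P2 dimers are mounted, and had a mean of 1735 ± 515 TPM. In each of the 9 cells both acidic members were above Rplp0. Of the small subunit, Rps2 was highest with 3138 ± 722 TPM, and Rps25 followed with a mean of 2987 TPM and cells from 2481 to 3641 TPM. Rps2 is a protein near the messenger entry and Rps25 is known for its part in internal initiation. These 2 neighbours in the order did not differ beyond their spread over cells.

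**Figure D2:**
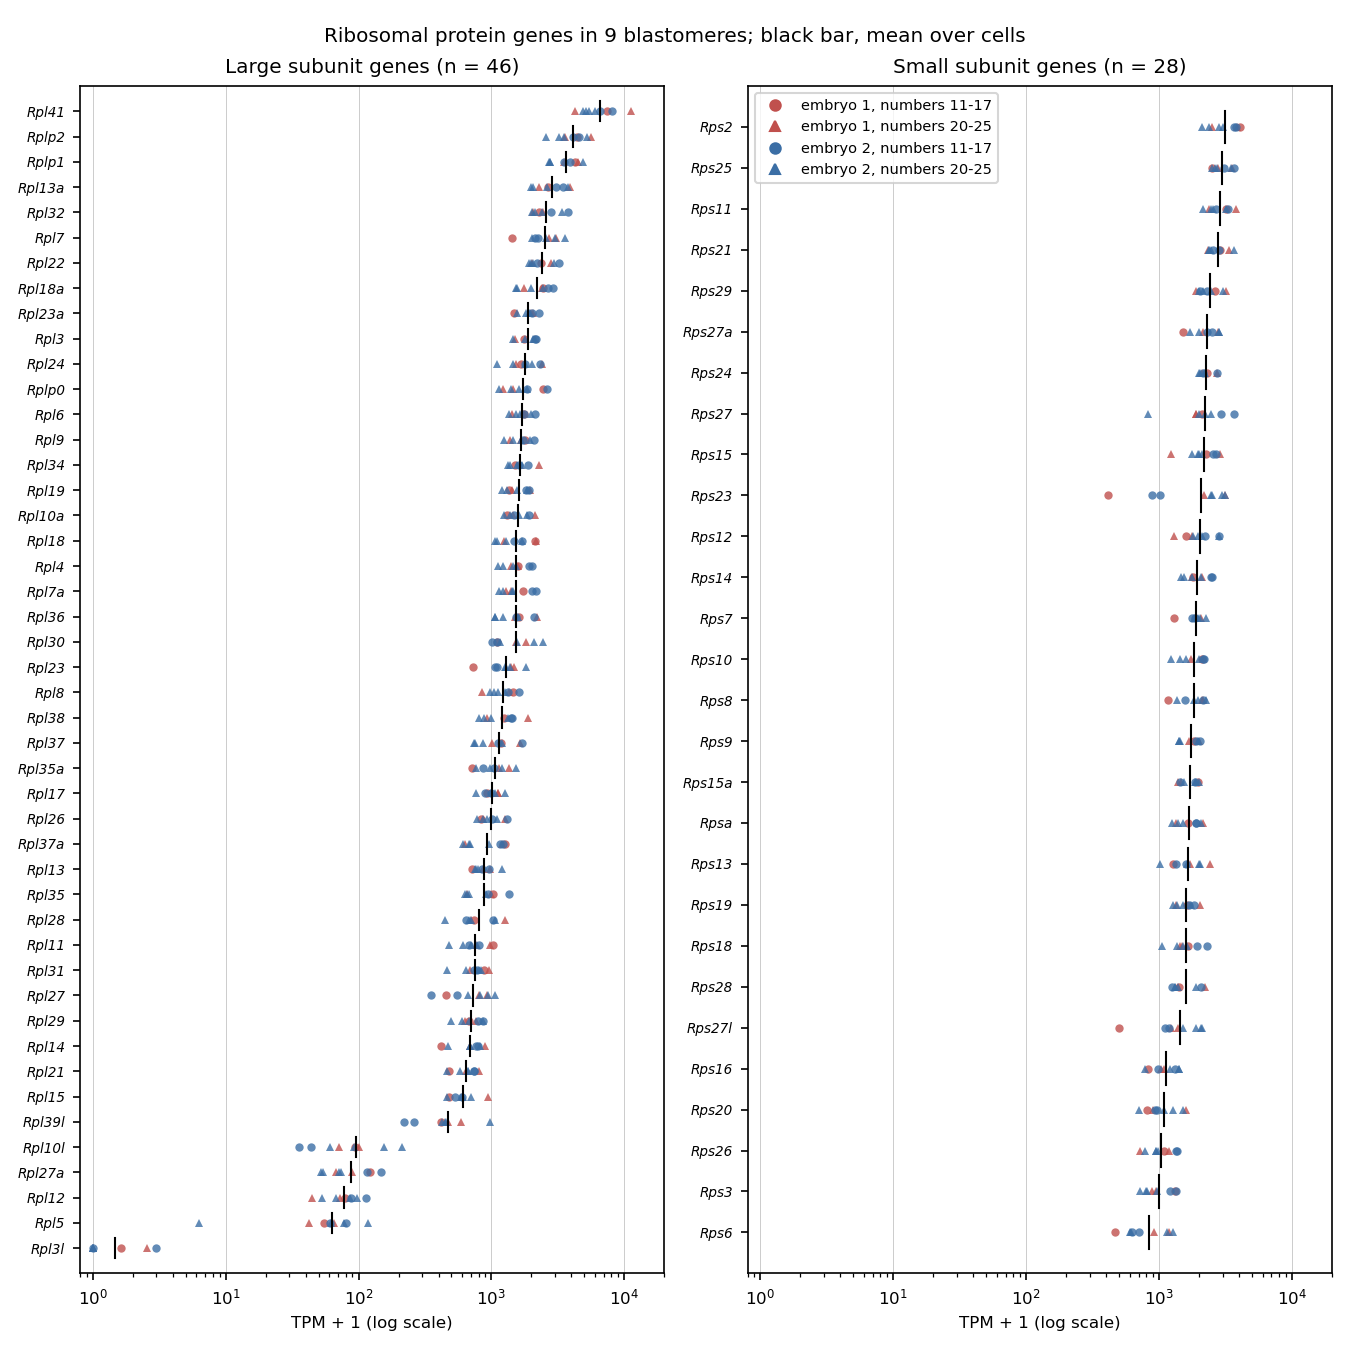
Each point is the TPM of 1 gene in 1 cell, on a log scale of TPM + 1, with large subunit genes on the left and small subunit genes on the right, ordered by mean (black bar). Genes not reported here by name are left out, and most of the means lie above 500 TPM, while Rpl10l, Rpl27a, Rpl12, Rpl5 and Rpl3l sit far below.

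The 6 members with a mean of 500 TPM or less all belonged to the large subunit. In ascending order they were Rpl3l, Rpl5, Rpl12, Rpl27a, Rpl10l and Rpl39l. Rpl3l, Rpl10l and Rpl39l are paralogs of ribosomal protein genes, the latter 2 known from the male germ line, where they stand in for genes of the X chromosome. Rpl39l had a mean of 473 ± 216 TPM (SD, n = 9 cells) and Rpl10l of 95.4 ± 56.4 TPM. Rpl5, Rpl12 and Rpl27a are standard components. Rpl5 binds 5S rRNA, and free Rpl5 is known to bind Mdm2. Rpl12 helps to form the base of the stalk, and Rpl27a lies in the body of the large subunit. Their means were 62.1, 76.9 and 87.3 TPM, far under the median member.

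Each of these 3 standard genes had a processed pseudogene of the same sequence with far higher TPM. Pseudogenes were matched by aligning their annotated transcripts to those of the members, a step chosen after the levels had been seen. Gm10275 on chromosome 10 matched Rpl12 over its whole 495 bases with 0 mismatches, and Gm15500 on chromosome 7 matched Rpl5 over its 894 bases with 0 mismatches. Gm7536 on chromosome 3 matched Rpl27a over its 444 bases with 0 mismatches. Reads inside such stretches cannot be told apart by sequence.

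Gm10275 had a mean of 4610 TPM, Gm15500 of 2873 TPM and Gm7536 of 1192 TPM. In every cell the matched pseudogenes exceeded their gene. For Rpl12, the cells of embryo 1 held 77.9, 71.2 and 43.4 TPM in the gene and 3010, 4712 and 6462 TPM in its matched pseudogenes. The cells of embryo 2 held 52.3 to 113 TPM in Rpl12 (median 85.9) and 3752 to 6049 TPM in its pseudogenes. As the sum of gene and matched pseudogenes, Rpl12 moved from place 74 to place 2 of 76 by mean TPM, Rpl5 from 75 to 13 and Rpl27a from 73 to 62.

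Rpl5 in embryo 2 cell 6 was at 5.31 TPM, the lowest value of a standard component in any cell, beside 41.4 to 117 TPM in the other 8 cells. The matched pseudogenes of Rpl5 were at 3235 TPM in that cell. The SD over the 9 cells of log2(TPM + 1) was 1.21 for Rpl5 alone, the highest of all members with mean TPM over 10, and 0.28 for the sum.

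Across all members, 1029 processed pseudogenes matched 73 of the 76 genes at an identity of 90% or more. Of these, 264 had a mean above 1 TPM and 33 above 100 TPM, and 18 of the 33 were aligned with no mismatch and no gap. Rpl3l and Rpl39l had no match. Pseudogenes that carry the name of a member with the ending ps held 1.59% ± 0.35 of TPM (SD, n = 9 cells), while all matched pseudogenes held 3.44% ± 0.63 of TPM (SD, n = 9 cells), beside the 12.5% of the genes themselves. For 12 members the pseudogenes summed to more TPM than the gene. With sums in place of genes, 73 members had a mean above 500 TPM, and Rpl39l, Rpl10l and Rpl3l were the 3 that did not. Matched copies are often shorter than the message, so a sum of TPM over both is not a count of molecules. How the quantification divided reads between them was not tested.

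**Figure D3:**
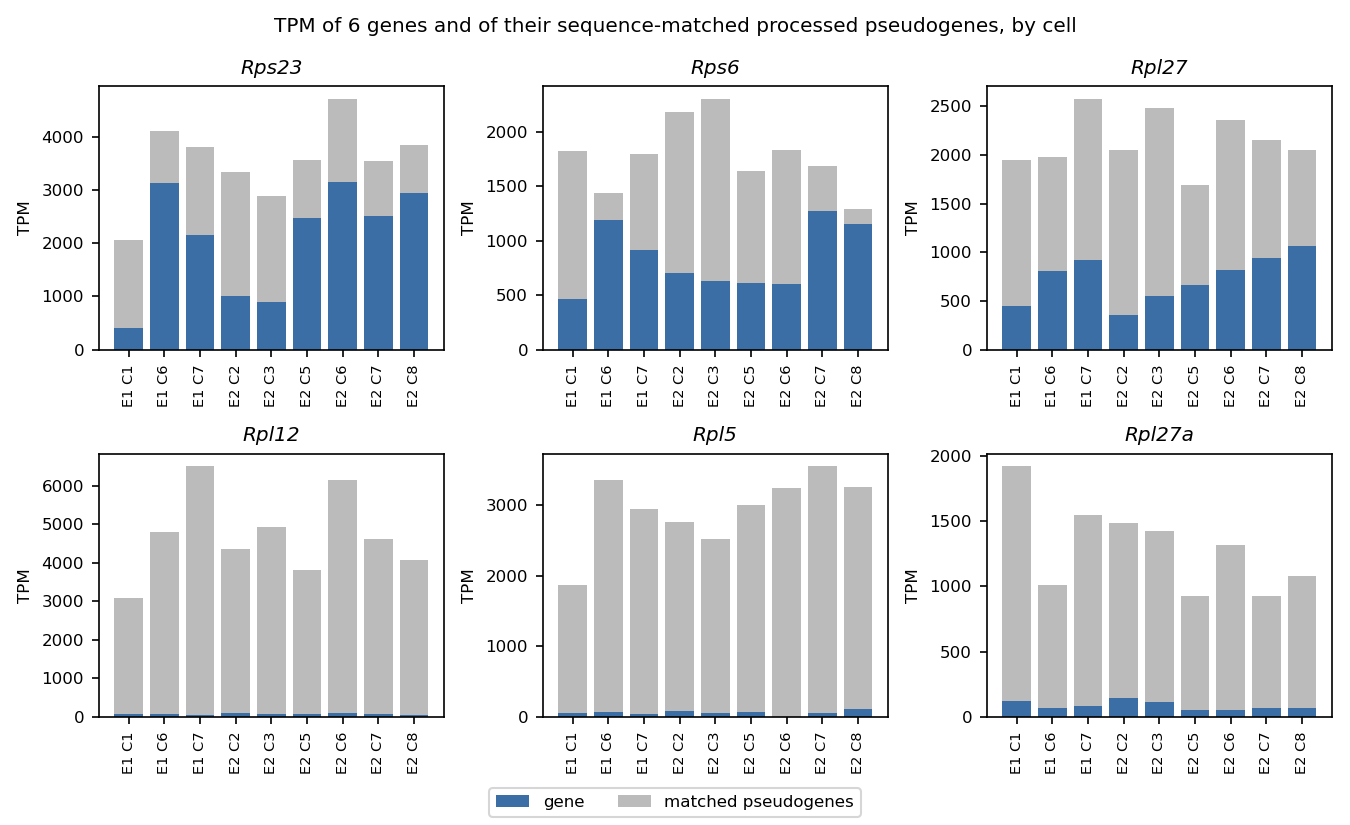
Stacked bars give the TPM of 6 genes and of their sequence-matched processed pseudogenes in each cell, with embryo 1 cells at the left. For Rpl12, Rpl5 and Rpl27a nearly all TPM lies in the pseudogenes, and for Rps23, Rps6 and Rpl27 the part of the gene varies more over cells than the sum.

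The number of large subunit genes is greater but their typical level is lower. The median of the mean TPM was 1251 over 46 large subunit members and 1863 over 30 small subunit members. With pseudogenes added the medians were 1703 and 2184 TPM. Summed over genes, the large subunit exceeded the small subunit 1.23, 1.14 and 1.25 times in embryo 1 cells 1, 6 and 7 and 1.07 to 1.197 times in embryo 2. The means of 1.204 ± 0.060 (SD, n = 3 cells) and 1.13 ± 0.05 (SD, n = 6 cells) differed by -0.070, beside a pooled SD of 0.053, and the cells of the embryos overlapped. Within the numbers 11 to 17 the difference was -0.036 and within 20 to 25 it was -0.087. With pseudogenes it was -0.051, beside a pooled SD of 0.021, and the embryos again overlapped. That difference was -0.004 within the numbers 11 to 17 and -0.075 within 20 to 25. The ratio of the medians over genes did not overlap between the embryos, with 0.674 to 0.754 in embryo 1 and 0.576 to 0.667 in embryo 2, a difference of -0.070 beside a pooled SD of 0.036. The mean of the large subunit relative to the small subunit was thus lower in embryo 2 on each of these measures. With pseudogenes and within the numbers 11 to 17 it was so by -0.004 only, and no difference was tested.

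The spread of single members over cells was close to that of background genes at like levels. Among the 75 members with mean TPM over 10, the median SD over the 9 cells was 0.32 on the log2(TPM + 1) scale. For the 70 members with mean TPM over 500 it was also 0.32, and for the 216 background genes above 500 TPM, which include these 70, it was 0.37. The 3 steadiest members were Rps24, Rpl23a and Rps15a, with SDs of 0.17, 0.20 and 0.21. Rps24 is needed for processing of the 18S rRNA precursor and was at 2002 to 2748 TPM. Rpl23a lies at the exit of the peptide tunnel and was at 1471 to 2267 TPM. The 3 most variable members were Rpl5, Rps23 and Rpl10l, with SDs of 1.21, 1.03 and 0.82. Rpl10l was highest in embryo 2 cell 7, at 212 TPM, and lowest in embryo 2 cell 3, at 34.9 TPM.

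The first comparison of the design was between the embryos, of which only embryo 2 was in S phase. Over the 76 members the median difference in mean log2(TPM + 1), embryo 2 minus embryo 1, was -0.03, and over the 10160 background genes it was -0.05. The sign of the median for the members depended on the scaling. It was 0.06 after centring cells on their median nuclear gene and 0.07 without mitochondrial genes. It was 0.20 within the numbers 11 to 17 and -0.17 within 20 to 25. The difference was below 0 for 43 members and above 0 for 33. No member reached a difference of 1 in either direction, where 5.51% of the background was at least 1 higher and 8.45% at least 1 lower. The median of the mean TPM was 1597 over members and 13.1 over the background. The part of level in this and the later comparisons with background shares was not tested. The median difference between embryos was -0.04 over large subunit members and -0.01 over small subunit members.

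Only Rps12, a protein of the small subunit head, did not overlap between the embryos. Rps12 (ENSMUSG00000061983.7, chromosome 10, 23785183 to 23787275) had 1582, 1292 and 1759 TPM in the cells of embryo 1. The cells of embryo 2 ran from 1800 TPM, in cell 8, through a median of 2162 TPM to 2835 TPM, in cell 6. The difference was 0.56, beside a pooled SD of 0.26, and stood at 0.66 among cells numbered 11 to 17 and 0.51 among those numbered 20 to 25. The groups overlapped when cells were centred on their median nuclear gene. They also overlapped when the matched pseudogenes were added, since these were at 972 TPM in embryo 1 cell 7 and at 4.58 to 117 TPM in the other cells.

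Thus 1 member of 76 was higher in every embryo 2 cell, where 0.906% of the background was, and 0 members were lower in every embryo 2 cell, where 2.39% of the background was. No p was computed for either count. Without embryo 1 cell 6, 5 members (6.58%) were lower in every embryo 2 cell, near the 6.13% of the background under the same setting, and without any other single cell 0 were.

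The largest difference was that of Rps27l (ENSMUSG00000036781.13, chromosome 9, 66946086 to 66949516), a paralog of Rps27 known as a target of p53. Embryo 1 cells 1, 6 and 7 had 499, 1220 and 1391 TPM of it. Embryo 2 had 1098 TPM in its lowest cell, a median of 1708 TPM and 2109 TPM in its highest cell. The embryos overlapped and embryo 1 cell 1 lay far below all other cells. The difference of 0.75 exceeded the pooled SD of 0.55, and was 1.196 among cells numbered 11 to 17 and 0.53 among those numbered 20 to 25. Its paralog Rps27 differed by 0.12, with a pooled SD of 0.63, and had its lowest cell, 822 TPM, in embryo 2 cell 5.

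The other members with the largest positive differences were Rps23 (0.45), Rpl12 (0.37) and Rpl32 (0.26), and each was smaller than its pooled SD, of 1.08, 0.41 and 0.32. On the negative side Rpl11 differed by -0.46 with a pooled SD of 0.26. Rpl11 enters the ribosome with Rpl5 and 5S rRNA. Embryo 1 held 1027, 761 and 982 TPM of it, and embryo 2 ran from 482 to 812 TPM with a median of 685 TPM, so only embryo 1 cell 6 lay within the range of embryo 2. Both number ranges gave a similar difference, of -0.47 (11 to 17) and -0.45 (20 to 25). Rpl18 differed by -0.40 (pooled SD 0.35) and Rpl36 by -0.34 (0.36), and the difference of Rpl3l, -0.42 (0.65), rests on values near 0. In all, 5 of the 76 differences (6.58%) exceeded their pooled SD, against 23.2% of the background.

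**Figure D4:**
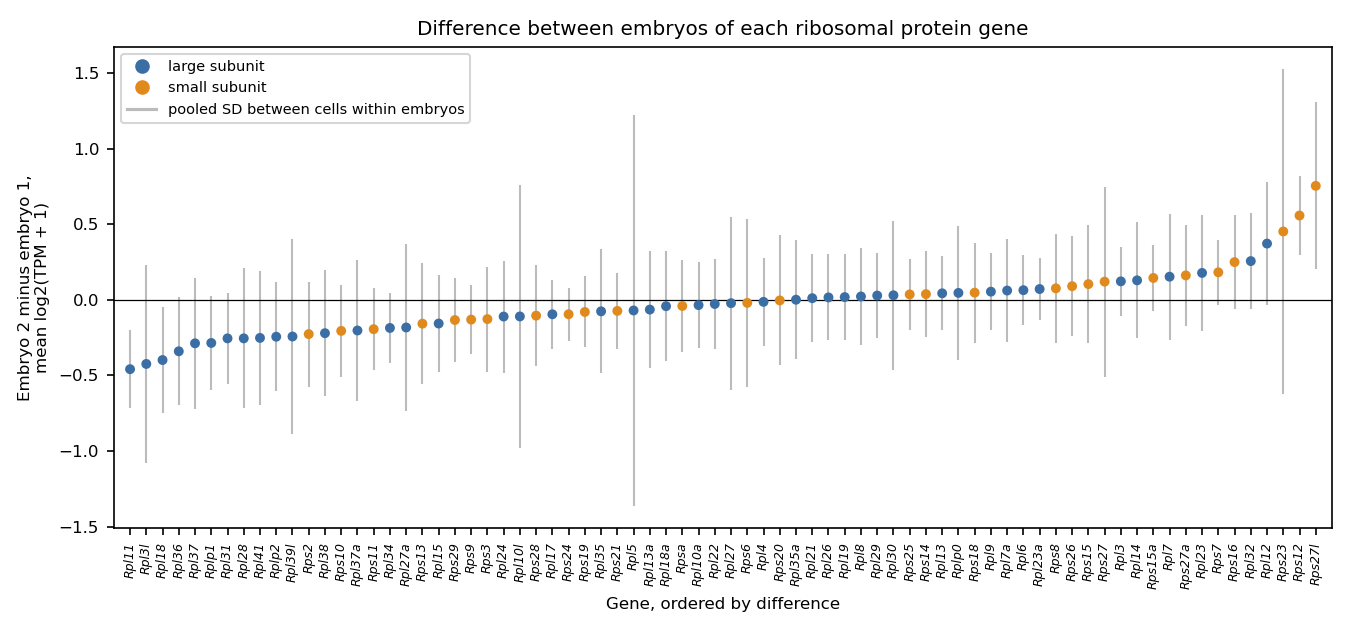
Points give, for each gene, mean log2(TPM + 1) of embryo 2 less that of embryo 1, ordered by size, and grey bars give the pooled SD between cells within embryos. Genes not reported here by name are left out. All points lie between -0.46 and 0.75, and most bars cross 0.

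Profiles of the members were less alike across the number ranges of the titles than across the embryos. The ranges also differed in the number of genes above 1 TPM, which was 12411 to 13319 in cells numbered 11 to 17 and 11058 to 11960 in the others, without overlap, and the part of this in the differences below was not tested. Over the 75 members with mean TPM over 10, the mean Pearson's r of log2(TPM + 1) was 0.962 over 3 pairs of cells numbered 11 to 17 and 0.946 over 15 pairs numbered 20 to 25. It was 0.897 over 18 pairs with a cell from each range. Pairs from the same embryo and from different embryos had means of 0.919 and 0.926. These are correlations across genes within pairs of cells that share an animal or a protocol, and they are given as a description.

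In embryo 1 only cell 1 is numbered 11 to 17, so the part of embryo 1 in every comparison by number range rests on that cell. The number-range difference was taken within each embryo, as 11 to 17 minus 20 to 25, and averaged over both with equal weight. Its median over the members was 0.14, and over the background it was 0.33. It was -0.03 in embryo 1 and 0.27 in embryo 2, and -0.19 when cells were centred on their median nuclear gene, so the members were not uniformly higher in either range. In the cells numbered 11 to 17, 7 members were higher than in every other cell, 9.21% of members and 6.9% of the background. In the opposite direction, 6 members (7.89%) were lower in every cell numbered 11 to 17, against 1.31% of the background. A difference of at least 1 was reached by 0 members in favour of 11 to 17, against 14.6% of the background, and by 2 members (Rps23 and Rps27l) in favour of 20 to 25, against 3.09%. When cells were centred, the counts of 7 and 6 were 0 and 7, beside 2.56% and 3.27% of the background. Leaving out embryo 1 cell 1 raised the count of 7 to 11 (14.5%), beside 1020 of the 10160 background genes, and leaving out its cell 7 raised it to 15 (19.7%), beside 8.89%.

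The 6 members lower in every cell numbered 11 to 17 were Rps23, Rpl30, Rps27l, Rpl23, Rpl27 and Rpl39l. Rps23 (ENSMUSG00000049517.8, chromosome 13, 90922958 to 90924950) is a protein of the decoding centre and had the largest difference, -2.10. Its level was 414 TPM in embryo 1 cell 1, 1013 TPM in embryo 2 cell 2 and 889 TPM in embryo 2 cell 3. In the 6 cells numbered 20 to 25 the lowest value was 2161 TPM, the median 2735 TPM and the highest 3154 TPM. The ranges were far apart in both embryos, with differences of -2.65 in embryo 1, where the first range is cell 1 alone, and -1.54 in embryo 2.

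The matched pseudogenes of Rps23 went the other way. Its copy Rps23-ps1 on chromosome 3 was identical over 425 bases, and all matched copies together were at 1642, 2327 and 2005 TPM in the cells numbered 11 to 17 and at 910 to 1659 TPM in the others. The difference of the pseudogenes was 0.65. The sum of gene and pseudogenes differed by -0.64, and its SD over cells was 0.34 in place of 1.03.

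Rps6, the small subunit protein phosphorylated by S6 kinase, had a gene and pseudogenes that also differed in opposite directions, with number ranges that overlapped. The gene was at 467, 701 and 626 TPM in embryo 1 cell 1 and embryo 2 cells 2 and 3, and at 607 to 1272 TPM in the cells numbered 20 to 25. Its pseudogenes, led by the identical Rps6-ps4 on chromosome 2, were at 1359 to 1682 TPM in the first range and at 136 to 1232 TPM in the second. The difference was -0.77 for the gene, 1.57 for the pseudogenes and 0.34 for the sum.

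For Rpl27 the gene differed by -0.95, with 353 to 548 TPM in the first range and 667 to 1061 TPM in the second. The sum with its pseudogenes differed by -0.04. Its identical copies Gm11518 on chromosome 11 and Rpl27-ps3 had the same TPM in every cell, 706 TPM on average. For Rpl23, a protein of the face between the subunits, the difference was -0.68 for the gene and -0.18 for the sum.

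Among the 31 members with more than 100 TPM in matched pseudogenes, gene and pseudogenes had number-range differences of opposite sign in 22. The SD over cells was lower for the sum than for the gene in 23 of the 31, and its median was 0.37 for the genes and 0.33 for the sums. The sum can hold any 2 values that offset each other, so this describes the table and does not show which copy was transcribed. Profiles over the 75 members were less alike as sums, with a mean Pearson's r over all pairs of cells of 0.898, against 0.923 for the genes. Over pairs with a cell from each range, the means were 0.864 and 0.897. Counted as sums, 5 members were lower and 5 higher in every cell numbered 11 to 17, of which 4 in each direction were also so as genes alone. Each count is 6.58% of members, beside the background shares of 6.9% higher and 1.31% lower, which hold genes without their pseudogenes.

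**Figure D5:**
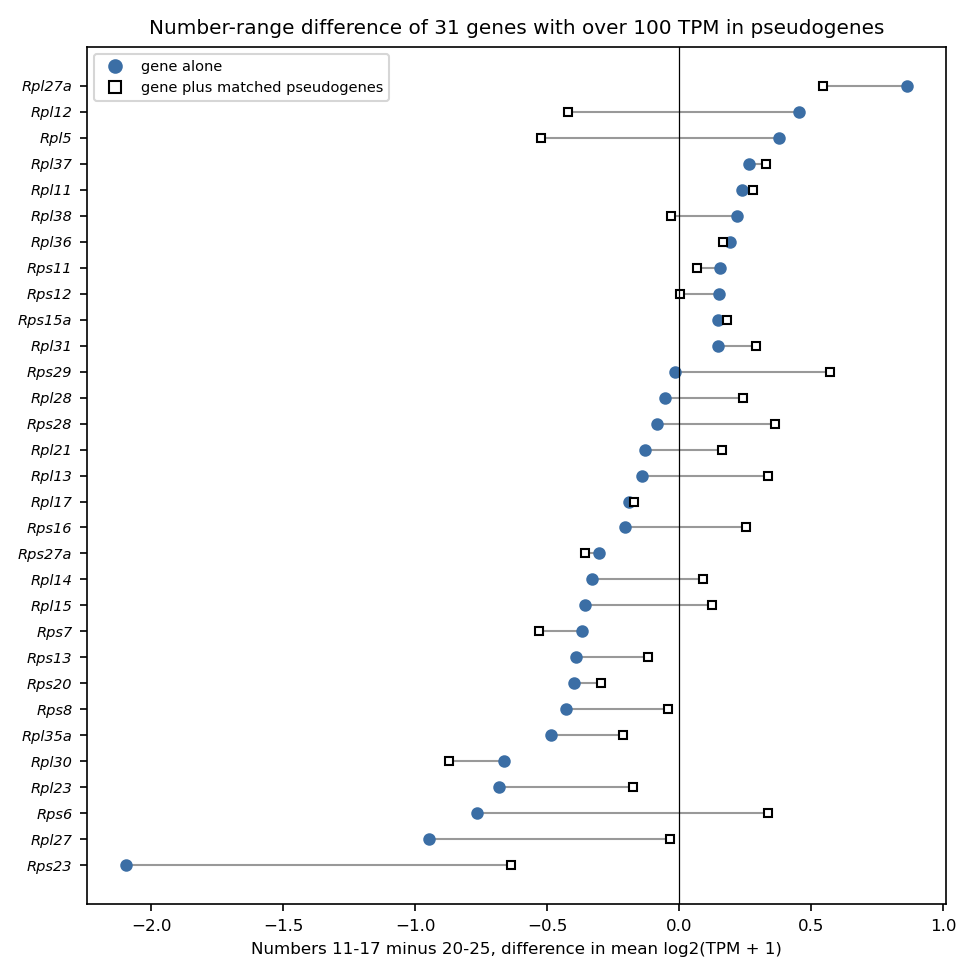
For the 31 genes with more than 100 TPM in matched pseudogenes, circles give the difference in mean log2(TPM + 1) between cells numbered 11 to 17 and 20 to 25 for the gene, and squares give it for the sum of gene and pseudogenes. Rps23, Rpl27 and Rps6 lie at -2.10, -0.95 and -0.77 alone and at -0.64, -0.04 and 0.34 as sums.

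Rps27l had under 10 TPM on average in pseudogenes and Rpl39l had no match. Adding pseudogenes could therefore hardly change their differences, of -1.05 and -0.74. Rpl39l was at 420, 220 and 262 TPM in the first range and at 425 to 968 TPM in the second and the ranges nearly met. Among the members higher in the cells numbered 11 to 17, the largest differences were those of Rpl27a (0.86), Rplp0 (0.73), Rpl37a (0.63), Rps3 (0.58) and Rps27 (0.54). Rplp0 was at 2453, 2607 and 1866 TPM in the first range and at 1142 to 1837 TPM in the second. Rps3, a protein of the messenger entry that also takes part in DNA repair, was at 1210 to 1348 TPM and at 715 to 957 TPM. Both were without overlap, and both had under 10 TPM in pseudogenes.

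Transcripts of the members were examined by their annotated class. The 76 genes had 461 annotated transcripts, of which 219 were protein-coding, 158 retained-intron, 61 processed transcripts without a reading frame and 23 candidates for nonsense-mediated decay. Protein-coding transcripts held 79.3% ± 3.85 (SD, n = 9 cells) of the TPM of the members. The share was 86.0%, 83.6% and 81.5% in the cells numbered 11 to 17 and 74.3% to 79.9% in the others, without overlap. Retained-intron transcripts held 5.22% to 8.19% in the first range and 9.92% to 12.98% in the second. In all other autosomal protein-coding genes the protein-coding share was 75.9% to 77.0% and 72.9% to 76.1%, and the retained-intron share was 8.23% to 9.43% and 8.42% to 10.3%, and both overlapped between ranges.

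Other transcripts were unevenly spread over the genes, and their share was higher in the cells numbered 20 to 25 for 37 of 75 members. In 47 members they held under 10% of TPM and in 19 members over 50%. The leading transcript was not protein-coding in 18 members, and was a retained-intron form in 9 of them. The 5 members with the largest share were Rps20 (97.2%), Rpsa (97.1%), Rps16 (95.8%), Rpl35 (95.7%) and Rps23 (95.3%). Rpsa encodes a small subunit protein that is also known as the laminin receptor, and 89.4% of its TPM lay in Rpsa-206, a 1101 base transcript annotated for nonsense-mediated decay.

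For Rps23, 91.6% lay in Rps23-202, a retained-intron transcript of 450 bases, and 4.66% in the protein-coding Rps23-201 of 937 bases. Rps23-202 was at 239, 836 and 722 TPM in the cells numbered 11 to 17 and at 1849 to 3043 TPM in the others, while Rps23-201 was at 101 to 132 TPM and 61.5 to 126 TPM. The number-range difference of the gene was therefore carried by Rps23-202. For Rps16, 76.9% lay in Rps16-203 of 518 bases, and the protein-coding Rps16-201 had 1109 bases. Transcripts of 1 gene share most of their sequence, and how reads were divided among them was not tested.

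Annotated starts were then read from the RefSeq promoter table (GRCm38.p6), which held 56 of the 76 members. The letters below are the 10 bases before the annotated start and the 20 from it. They show 4 members whose annotated message begins with the TOP start and Rpl5, in which none began within 5 bases of the annotated start. In 3 others, among them the paralog Rps27l, a C and pyrimidines were marked from 1 or 2 bases later. In Rpl27a and in the 4 members with the TOP start, the pyrimidines run unbroken from before the annotated start. The marked stretch is only part of the run in each of these. Another annotated start of Rps27l showed no such stretch. Capitals mark the C and the pyrimidines that follow it, searched first at the annotated start and then outward.
Rps6 (chr4:86857348-86857377, minus strand): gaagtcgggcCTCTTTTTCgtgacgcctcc
Rplp2 (chr7:141447641-141447670, plus strand): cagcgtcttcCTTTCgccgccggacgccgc
Rps27 (chr3:90213629-90213658, minus strand): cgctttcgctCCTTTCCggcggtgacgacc
Rpl35 (chr2:39005112-39005141, minus strand): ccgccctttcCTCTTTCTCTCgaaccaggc
Rpl27a (chr7:109519185-109519214, plus strand): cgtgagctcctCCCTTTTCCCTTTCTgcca
Rpl12 (chr2:32961702-32961731, plus strand): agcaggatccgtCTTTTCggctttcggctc
Rps27l (chr9:66946076-66946105, plus strand): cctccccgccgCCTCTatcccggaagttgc
Rpl5 (chr5:107900518-107900547, plus strand): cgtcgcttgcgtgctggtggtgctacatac

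A C followed by at least 4 pyrimidines stood at the annotated first base in 13 of 56 members (23.2%) and in 3.01% of 27025 genes of the table. When the C could lie from 5 bases before to 5 after that base, the shares were 48.2% and 21.2%. With at least 6 pyrimidines at the annotated base they were 17.9% and 1.29%. In the 300 base promoters, CCGGAAG, a site of ETS factors, was present on either strand in 42.9% of members and 9.93% of all genes. GGGCGG, a site of Sp1, was present in 58.9% and 38.2%, AAGATGGC, a site of YY1, in 8.93% and 3.19%, and TATAAA in 7.14% and 15.7%. The genes of the promoter table were not filtered by level or class, unlike the background used for levels. These matches describe the letters of the reference and not measured starts or binding.

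Replication state was taken from 40 kb bins of the DNA of the same cells. Bins covered 71 members, and the other 5, on chromosomes 6 and 10, were Rpl32, Rpl41, Rps12, Rps15 and Rps26. In embryo 2 cells 2, 3, 5, 6, 7 and 8 the members were replicated in 98.6%, 97.2%, 98.6%, 88.7%, 100% and 97.2% of cases. Over all autosomal protein-coding genes with a state in the cell, 17770 to 17983 of them, the shares were 95.0%, 90.9%, 94.0%, 78.4%, 95.1% and 95.1%. The members were above all genes in each of the 6 cells, and cell 6 was lowest for both. Of the 71, 58 (81.7%) were replicated in all 6 cells, against 67.5% of all genes. In embryo 1, 2 members (2.82%) were called replicated in cell 1, 1 (1.41%) in cell 6 and 0 in cell 7, beside 4.36%, 0.828% and 0.0055% of all genes. The study placed these cells in G1 or G2/M from their uniform copy number. Such calls cannot tell unreplicated from fully replicated genes in these cells.

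The only member unreplicated in more than 1 embryo 2 cell was Rpl10l, in cells 2 and 8. A further 12 were unreplicated in 1 cell, and cell 6 accounted for 8 of these. The highest member among them was Rplp2, which was unreplicated in cell 6 and at 5203 TPM there, its highest value in embryo 2. Over the 13 members with both states, log2(TPM + 1) in replicated minus unreplicated cells had a mean of -0.09 ± 0.40 (SD over genes). It was above 0 in 6 and below 0 in 7. The contrast rests on 1 unreplicated cell for 12 of the 13 genes, and mostly on the same cell. That cell, embryo 2 cell 6, held 13.8% of TPM in members, beside a mean of 12.4% in embryo 2. The lowest contrast, -0.85 for Rps23, also takes in the number-range difference of that gene, since cells 2 and 3 are among its replicated cells.

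Other genes of translation were examined by lists fixed from their function or symbol. The list of initiation factors was drawn by symbol, so it also holds Eif2ak kinases and Eif4ebp proteins, which are not initiation factors themselves. Their median differences between embryos, on the same log2 scale, were 0.07 for 52 initiation factors, 0.09 for 9 elongation and termination factors, -0.06 for 78 mitochondrial ribosomal proteins, -0.07 for 40 nucleolar assembly factors, 0.14 for 11 RNA polymerase I genes, -0.003 for 17 regulators of TOP messages and 0.15 for 13 other TOP messages. These medians moved when single cells were left out, and that of the cytosolic ribosomal proteins, -0.03, ranged from -0.12 to 0.09. Without embryo 1 cell 6 the medians were -0.001 for elongation factors, -0.21 for mitochondrial ribosomal proteins, -0.23 for TOP regulators and -0.04 for other TOP messages. Without embryo 2 cell 3 that of RNA polymerase I was 0.004, and without embryo 2 cells 5 or 6 that of nucleolar factors was 0.009 or 0.03. The range for initiation factors was 0.02 to 0.15, and no order of the lists is read from these values. The list of 52 initiation factors held 2 genes at least 1 higher in embryo 2 and 1, an Eif2ak kinase, at least 1 lower. The 78 mitochondrial ribosomal proteins held 1 higher and 3 lower. The other TOP messages held 1 higher and the TOP regulators 1 lower, and the remaining 3 lists held none in either direction. The 7 lists hold 220 entries, some of which repeat a gene. Of these entries, 4 (1.82%) were at least 1 higher and 5 (2.27%) at least 1 lower. Both were below the background shares of 5.51% and 8.45%. Unlike the background, the lists take in genes of chromosome X and genes with mean TPM under 1. Without overlap, 2 genes, Eif4a2 and Polr1e, were higher (0.909%, background 0.906%), and 3 genes, Mrpl52, Mrpl24 and Hnrnpa1, were lower in embryo 2 (1.36%, background 2.39%), so neither count stood above the background. Single genes are given by the naming rule as values.

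Mrpl52, a large subunit protein of the mitochondrial ribosome, ranged from 116 to 140 TPM over embryo 1 and from 37.9 to 52.4 TPM over embryo 2, a difference of -1.48 with a pooled SD of 0.18. Eif4a2, a helicase that unwinds the start of messages, ranged from 72.2 to 122 TPM and from 178 to 351 TPM, a difference of 1.199 with a pooled SD of 0.38. Tpt1, whose TOP message encodes the translationally controlled tumour protein, was at 248 to 665 TPM and 467 to 2523 TPM and overlapped, with a difference of 1.57 and a pooled SD of 0.86. No cytosolic ribosomal protein gene differed by as much as any of these 3. Of the other genes that led their lists, Rack1, a protein bound to the small subunit, had the highest mean of its list, 2628 TPM, and Eef1a1, which brings aminoacyl tRNA to the ribosome, was at 2329 TPM. Their differences were -0.20 and 0.22, beside pooled SDs of 0.26 and 0.23. Npm1, a nucleolar chaperone of ribosome assembly, had a mean of 2806 TPM and a difference of 0.30 beside a pooled SD of 0.67.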

How the data were processed

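The authors set the RNA reads of each cell to a common number, mapped them to mm10 and quantified genes and transcripts with RSEM, and deposited TPM per gene and transcript. For the DNA of the same cells, which was mapped with BWA 0.7.17-r1188 per the labels, the authors deposited a score per 40 kb bin, 1 for replicated and -1 for unreplicated, from a 2-state model.

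RNA columns were assigned to 9 of the 13 labelled cells by the number that closes each header, since every RNA header carries the same cell name. In each table, 14 columns were tied to no labelled cell and were not used. Gene IDs were given symbols, positions and biotypes from a GENCODE annotation of mm10 (55141 of 55487 matched), and promoters came from RefSeq. Levels were compared as log2(TPM + 1), which understates differences of low genes. The background was the 10160 autosomal protein-coding genes with mean TPM > 1, of which 75 are members. Embryos and number ranges were compared by mean differences beside the SD pooled over cells within embryos, and a call without overlap means that every cell of a group exceeded every cell of the other. Cells of an embryo are not replicates, so no test was run. Processed pseudogenes were matched to members by blastn 2.17.0 (identity of at least 90% over at least 50% of the pseudogene). Calculations used Python 3.11.15, numpy 2.4.6, pandas 2.3.3 and matplotlib 3.10.9, and the differences were checked on simulated data.

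The members, lists and rules were chosen with earlier results of these data known. The named genes were the 5 highest and 5 lowest, the 5 with the largest differences in each direction of each comparison, those listed at 0 or without overlap between embryos, the 3 most and 3 least variable, paralogs, stalk proteins, Rpsa, those with most TPM outside coding transcripts and those unreplicated in more than 1 embryo 2 cell. From each list of other translation genes the highest gene and the largest differences were eligible. Some genes are not reported here by name. Rpl23, Rpl30, Mrpl24 and the pseudogenes were named after their values were seen. Alternatives that leave out each cell in turn, change the pseudocount, filter, total or scaling were fixed beforehand, and those that add matched pseudogenes were chosen after seeing the data.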

Additional observations from a re-analysis of the deposited data

Results flagged for a closer look

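In embryo 2, 39 measures were screened by a rule on gaps for a cell far from the other 5, and 4 had one. The rule alone would give about 1.95 by chance. The genes among the 4 had been named partly for extreme values, so that figure does not apply to them and the screen is a description. The share of members called replicated was 88.7% in cell 6 and 97.2% to 100% in the other cells. Rpl39l was at 968 TPM in cell 8 and at 220 to 458 TPM in the others. Rps24 was at 2748 TPM in cell 3 and at 2002 to 2232 TPM in the others. Rpl3l was at 1.99 TPM in cell 3 and listed at 0 in the others, so any value above 0 there would have been flagged. For Rpl23a, the cells numbered 11 to 17 were on average -557 TPM from those numbered 20 to 25 in embryo 1 and 333 TPM above them in embryo 2, with every cell on its side, and this difference between embryos was not tested.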

How the results depend on the processing

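No paired analysis was possible because no test was run and the cell numbers that both embryos share name separate cells. The number-range difference was taken within each embryo. Cells of an embryo are not replicates, TPM keeps no depth, and embryo and cell cycle stage cannot be told apart. Of 263 alternatives over 22 results, 242 stayed within the spread or within 1.5 times the count and 21 moved further, and the cause was not tested. Some could not move, since leaving out a cell of embryo 1 does not alter the replicated share in embryo 2. Others that stayed within the spread changed sign, such as the embryo difference in share, which was 0.80 without embryo 1 cell 7. The tally is therefore not a measure of robustness. The share of TPM (12.5%) was 18.5% of protein-coding nuclear genes, 9.93% for protein-coding transcripts and 15.9% with matched pseudogenes, and its embryo difference among cells numbered 11 to 17 was 1.52. Members higher in every embryo 2 cell (1) numbered 0 when centred and 0 with pseudogenes, and members lower numbered 0 to 5 when each cell was left out in turn, with 5 without embryo 1 cell 6. Members higher in every cell numbered 11 to 17 (7) numbered 0 when centred, 4 without mitochondrial genes and 7 to 15 when each cell was left out, with 11 without embryo 1 cell 1 and 15 without its cell 7. The SD of levels over members (1.66, mean log2 scale) was 1.22 with mean TPM over 10, 1.87 with a pseudocount of 0.1, 1.13 without paralogs and 1.46 with pseudogenes. The subunit ratio was 0.659 from medians. The protein-coding share was 83.7% in cells numbered 11 to 17 alone. Pseudogenes named after members held 1.59% of TPM, beside 5.62% for every processed pseudogene, 3.44% for those matched at 90% identity and 3.36% at 98%. Pyrimidine starts were 48.2% in the wider window.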

Other observations

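Of the ribosomal protein genes on chromosome X, which the rule left out, Rps4x, a small subunit protein, was at 2461, 2553 and 3445 TPM over embryo 1. Its cells in embryo 2 lay between 1294 and 1814 TPM, with every cell below those of embryo 1, a difference of -0.83 in log2(TPM + 1) beside a pooled SD of 0.22. Rpl36a, Rpl10 and Rpl39 differed by -0.94, -0.82 and -0.70, beside pooled SDs of 0.53, 0.64 and 0.55, and each overlapped between embryos. Each of these 4 differences was larger in size than that of any autosomal member except the 0.75 of Rps27l, which had the opposite sign and exceeded that of Rpl39. These genes were chosen after their values were seen, and no test was run.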
